A study of Drosophila melanogaster with 12 samples.

Results

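The 8 genes studied here direct germ cell differentiation, germline sex identity or pole plasm assembly in Drosophila were followed in Egg chromatin immunoprecipitation sequencing (ChIP-seq) of cultured ovarian somatic cells. They were bam, bgcn, Phf7, Sxl, otu, ovo, osk and tud, chosen by gene symbol, and all 8 were found among the 16754 genes with a row in the deposited table. They took 44 transcript rows, each matched by RefSeq accession, and the rows of a gene were summed. Egg (Eggless), the SETDB1 of flies, places methyl groups on lysine 9 of histone H3. The cells, called OSCs, were crosslinked with formaldehyde after 4 days of knockdown, and DNA was sequenced before (input) and after precipitation with an antibody to Egg. The control knockdown (siEGFP) targeted EGFP and the other (siEgg) targeted Egg, and the labels list 2 samples for each input and each ChIP of these knockdowns. The table holds 1 value column for each of these 4 groups, with no replicate number, so a column may be 1 sample or a pool of both. The siPiwi and siWde samples were not analysed here.

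Germline stem cells of the fly ovary are held undifferentiated by BMP signals from somatic neighbours that keep bam off, and the rise of Bam, acting with its partner Bgcn, starts differentiation. Female identity of the germ cells depends on Sxl, whose expression there needs otu, and on the transcription factor Ovo. Phf7 promotes male germ cell identity, and in female germ cells it is known to be silenced through H3K9 methylation that needs Egg, its cofactor Windei and the protein HP1a. Osk and Tud build the germ plasm from which germ cells form in the embryo. OSCs are somatic cells of the ovary with a nuclear piRNA pathway, so most of these genes work in a cell type other than the one studied.

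Whole reads could be recovered from the deposited RPKM (reads scaled by row length and library depth), and total depth ranged from 1698148 reads (siEgg ChIP) to 2293964 reads (siEgg input). The median tested gene held 28 reads in the siEGFP input, 27 in the siEgg input and 20 in either ChIP. Enrichment is the log2 ratio of ChIP to input RPKM after adding 0.7 RPKM to each, and change is enrichment in siEgg minus that in siEGFP. A gene was called enriched or depleted, or was said to fall or rise, when the log2 size was at least 1 and the 95% counting interval excluded 0. With 1 column per group there was no spread between replicates, so no p-value is given. The intervals cover counting error only and compare libraries, not conditions. By this rule 5.57% of 12555 genes tested were enriched in siEGFP and 7.48% were depleted, while 1.24% were enriched and 1.1% depleted in siEgg. In the change 3.24% fell and 4.93% rose, or 407 and 619 genes. Quantile scaling made these 364 and 299, and centring on the median gene made them 748 and 234. In siEGFP 699 genes were enriched and 939 depleted. By quantile scaling the numbers were 618 and 272, and centring led to 1145 and 308. The median gene lay at -0.29 in siEGFP, at -0.04 in siEgg and at 0.22 in the change. Quantile scaling moved these medians to -0.05, -0.02 and 0.03. The egg gene itself had 50 and 57 input reads and 24 and 42 ChIP reads in siEGFP and siEgg. These are DNA reads and do not measure expression, so neither the knockdown nor the cell type could be checked from marker genes.

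The rows cover exon sequence and not promoters or introns. The recovered row length was 1894 bases for bam in a gene span of 2071 bases, 4144 and 4159 bases for bgcn in 5652, and 1515 to 5964 bases for Sxl in 23504. A signal restricted to a promoter or an intron of these genes would therefore not be counted here. Signal in a fraction of the cells and weaker signal in all of them cannot be told apart.

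Of the pair that starts differentiation, bgcn was enriched in the control knockdown and fell in the Egg knockdown, while bam had no call in either. bgcn encodes a protein related to DExH-box RNA helicases that acts with Bam to repress translation, and lies at 2R:23853270-23858921 (dm6). Its reads in siEGFP numbered 70 for input and 162 for ChIP, against 57 and 50 in siEgg, or 7.73 and 21.7 RPKM against 5.99 and 7.09. The siEGFP ChIP library was thus the high value and the 3 other libraries lay close together, with Poisson intervals of 6.02 to 9.76 and 4.53 to 7.76 RPKM in the inputs and 5.26 to 9.35 RPKM in the siEgg ChIP. That of the siEGFP ChIP, 18.5 to 25.3 RPKM, overlapped none of them. In siEGFP bgcn was enriched 2.66-fold, a log2 ratio of 1.41 (interval 1.08 to 1.92), higher than 96.8% of all genes tested. In siEgg its ratio was 0.22 (-0.33 to 0.82), not distinguishable from input at this depth.

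The change at bgcn was -1.19 (interval -1.87 to -0.51), which passed the rule for a fall. Among all genes enriched in siEGFP, 41.5% fell by the same rule, so a fall at an enriched gene was frequent in this table. The siEGFP libraries enter both the enrichment and the change. Counting error that raises the enrichment in siEGFP therefore also lowers the change, at bgcn as at these genes. Directly, siEgg ChIP minus siEGFP ChIP was -1.52 (-2.10 to -1.15), and the inputs differed by -0.33 (-0.90 to 0.16). With quantile scaling the enrichment in siEGFP was 1.05 (0.72 to 1.56) and the call held, but the change was -0.76 (-1.44 to -0.08) and no longer passed.

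bam, the switch gene itself, lies at 3R:25243039-25245109 and had the fewest reads of the set over the 4 libraries. It had 26 input and 20 ChIP reads in siEGFP and 17 input and 25 ChIP reads in siEgg, or 6.29 and 5.88 against 3.91 and 7.77 RPKM. The 4 Poisson intervals overlap, the widest from 5.03 to 11.5 RPKM in the siEgg ChIP. The log2 ratio was -0.09 in siEGFP (interval -1.02 to 0.80) and 0.88 in siEgg (0.04 to 1.97), with a change of 0.96 (-0.24 to 2.17) that did not pass. The siEgg value was below the 2-fold limit and passed it with quantile scaling alone (1.02). The siEgg input was the lower of the inputs, by -0.60 (-1.66 to 0.25), and against both inputs pooled the siEgg ratio was 0.55 (-0.16 to 1.36).

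**Figure D1:**
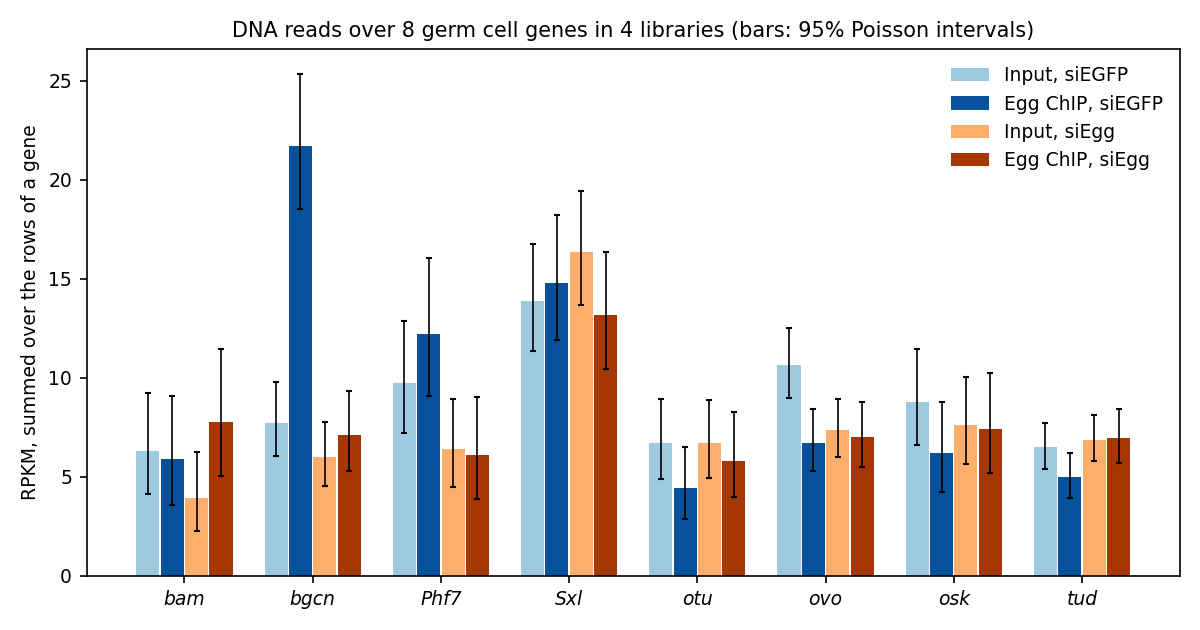
DNA reads over each of the 8 genes in RPKM summed over its transcript rows (vertical axis), in the inputs (light) and Egg ChIPs (dark) of siEGFP (blue) and siEgg (orange); bars give 95% Poisson intervals. The siEGFP ChIP of bgcn, at 21.7 RPKM, is the only ChIP value whose interval lies wholly above that of its own input.

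Among the 4 genes of germline sex identity none was enriched or depleted in either knockdown. Phf7, the male identity factor with PHD-type zinc fingers that reads histone H3, lies at X:20160355-20165830. It had 49 input and 51 ChIP reads in siEGFP and 35 and 24 in siEgg, or 9.75 and 12.2 against 6.41 and 6.07 RPKM. Both siEgg libraries were lower than both siEGFP libraries, and the Poisson intervals of the ChIPs did not overlap (3.89 to 9.04 against 9.09 to 16.0 RPKM). The ChIP libraries differed by -0.93 (-1.77 to -0.28) and the inputs by -0.56 (-1.23 to 0.10). The log2 ratio of ChIP to input was therefore 0.30 in siEGFP (-0.26 to 0.93) and -0.07 in siEgg (-0.92 to 0.68). The change of -0.37 (-1.31 to 0.56) did not pass, and a fall of 2-fold lies inside its interval. Against both inputs pooled the change was -0.93 (-1.62 to -0.24), just short of 2-fold. A pooled input cancels in a change, so this is the difference between the ChIPs again, with another kind of interval.

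Sxl, the RNA-binding regulator of splicing that sets female identity, lies at X:7074550-7098053 and has 24 rows in the table. It had 105 input and 90 ChIP reads in siEGFP and 130 and 80 in siEgg, or 13.9 and 14.8 against 16.4 and 13.1 RPKM. All 4 values lay within each other's Poisson intervals or overlapped them. The log2 ratio was 0.09 in siEGFP (-0.36 to 0.48) and -0.30 in siEgg (-0.69 to 0.15), with a change of -0.39 (-0.96 to 0.18). The sign of the siEGFP ratio flipped with quantile scaling (-0.37) and with pooled inputs (-0.03). Because its rows differ in length, its summed RPKM is not comparable with those of the other genes.

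otu, which encodes a deubiquitinase needed for Sxl expression in female germ cells, lies at X:8485008-8489535. It had 46 input and 25 ChIP reads in siEGFP and 48 and 31 in siEgg, or 6.70 and 4.41 against 6.70 and 5.82 RPKM. The inputs were alike and both ChIPs lay under them, with log2 ratios of -0.53 (-1.36 to 0.13) and -0.18 (-0.90 to 0.48). The change was 0.35 (-0.60 to 1.30), and it flipped to -0.02 with quantile scaling.

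ovo encodes the zinc finger transcription factor that acts upstream of otu, and lies at X:5048273-5070929. It had 143 input and 74 ChIP reads in siEGFP and 103 and 74 in siEgg, or 10.6 and 6.70 against 7.34 and 6.98 RPKM. The siEGFP input was the high library, and its Poisson interval (8.97 to 12.5 RPKM) lay above those of the other 3. ovo was the gene of the set whose siEGFP interval lay wholly below 0, at -0.61 (-1.09 to -0.25), short of the 2-fold rule. In siEgg the ratio was -0.07 (-0.49 to 0.40). The change of 0.55 (-0.04 to 1.14) did not pass, and its inputs differed by -0.50 (-0.92 to -0.17), while the ChIPs differed by 0.05 (-0.40 to 0.57). No gene of the set differed 2-fold between the inputs, where by the same rule 0.327% of all genes tested were higher and 1.09% lower in siEgg.

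The pole plasm genes likewise gave no call. osk, whose product starts germ plasm assembly at the posterior of the oocyte, lies at 3R:8935126-8938395. It had 55 input and 32 ChIP reads in siEGFP and 50 and 36 in siEgg, or 8.78 and 6.21 against 7.60 and 7.39 RPKM, with overlapping intervals throughout. Its log2 ratio was -0.46 in siEGFP (-1.18 to 0.15) and -0.04 in siEgg (-0.70 to 0.61), a change of 0.42 (-0.46 to 1.30). tud, the Tudor-domain scaffold of polar granules, lies at 2R:21183322-21192913 and had 125 input and 79 ChIP reads in siEGFP and 139 and 104 in siEgg, or 6.49 and 4.98 against 6.87 and 6.94 RPKM. The siEGFP ChIP was its low library, and the ChIPs differed by 0.43 (0.04 to 0.92), though all intervals of the 4 libraries overlapped. Its log2 ratio was -0.34 in siEGFP (-0.81 to 0.04) and 0.01 in siEgg (-0.37 to 0.39), and the change was 0.35 (-0.19 to 0.90).

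In the order of siEGFP enrichment bgcn came first, followed by Phf7, Sxl, bam, tud, osk, otu and ovo. The step from bgcn to Phf7 was 1.11 on the log2 scale (0.41 to 1.80), and bgcn differed beyond counting error from each of the 7 other genes. None of the 6 later steps between neighbours in the order exceeded counting error, the widest being bam above tud by 0.25 (-0.67 to 1.18). Of the remaining pairs, Phf7 lay above ovo by 0.92 (0.23 to 1.61) and Sxl above ovo by 0.71 (0.13 to 1.28). In all 9 of 28 pairs had an interval excluding 0 in siEGFP, against 1 of 28 in siEgg, where bam lay above Sxl by 1.18 (0.21 to 2.14). These intervals were not adjusted for the number of pairs. In the change, bgcn lay below bam, ovo, osk, tud and otu, by 1.54 (0.37 to 2.71, otu) to 2.16 (0.77 to 3.54, bam), but its differences from Phf7, 0.82 (-0.34 to 1.97), and Sxl, 0.80 (-0.09 to 1.68), were within counting error.

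**Figure D2:**
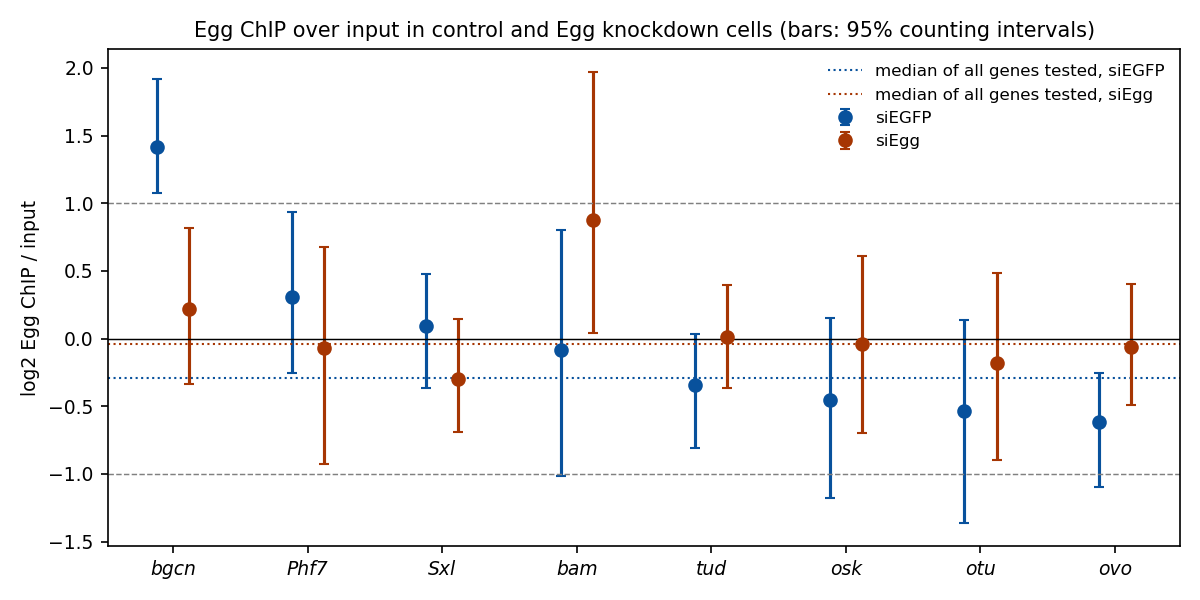
Log2 ratio of Egg ChIP to input for the 8 genes, ordered by siEGFP, in siEGFP (blue) and siEgg (orange), with 95% counting intervals; dashed lines mark a 2-fold difference and dotted lines the median of all genes tested. bgcn at 1.41 in siEGFP is the one value beyond a dashed line, and in siEgg it lies at 0.22.

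As a set the 8 genes lay near the rest of the table. Their median was -0.21 in siEGFP, -0.05 in siEgg and 0.35 in the change, beside -0.29, -0.04 and 0.22 over all genes tested. One member was enriched in siEGFP and 1 fell, bgcn in both cases, and none was depleted or rose. Among all genes tested the shares were 5.57% enriched, 7.48% depleted, 3.24% fallen and 4.93% risen, so counts this small among 8 genes set them apart in no way. In siEGFP the other genes lay above 80.5% (Phf7), 72.3% (Sxl), 63.1% (bam), 46.8% (tud), 38.5% (osk), 33.1% (otu) and 27.6% (ovo) of all genes tested. In siEgg bam stood highest, above 96.8% of them.

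**Figure D3:**
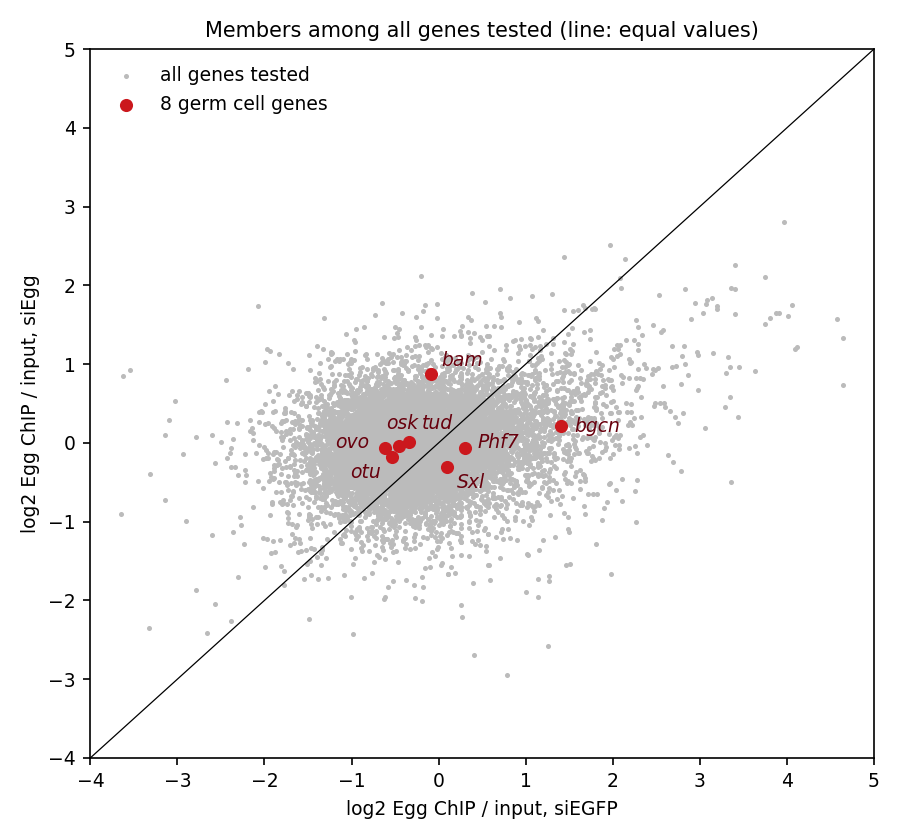
Log2 ratio of Egg ChIP to input in siEgg (vertical axis) against siEGFP (horizontal axis) for all 12555 genes tested (grey) and the 8 genes (red), with the line of equal values. bgcn lies below the line and above 96.8% of genes in siEGFP, and bam lies above 96.8% in siEgg. Neither lies at an edge of the cloud, whose highest genes reach 4.64 in siEGFP and 2.80 in siEgg.

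Both transcript rows of bgcn were high in the siEGFP ChIP. Rows of a gene can share exons, so these rows are not separate support for the signal. The row of 4144 bases had 39 input and 80 ChIP reads in siEGFP, a log2 ratio of 1.19 (0.75 to 1.91), and that of 4159 bases had 31 and 82, a ratio of 1.504 (1.07 to 2.33). In siEgg these rows had 32 input and 23 ChIP reads and 25 and 27 reads, with ratios of -0.04 (-0.88 to 0.78) and 0.45 (-0.30 to 1.39). The sources used here do not state whether a read could count in more than 1 row of a gene. The osk rows, both of 2869 bases, held 25 and 30 siEGFP input reads, so not every read counted in both. If some reads counted in more than 1 row, the intervals of the summed genes are too narrow. With the row of 4144 bases alone bgcn was still enriched, and its change of -1.23 (-2.17 to -0.28) still passed.

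The 3 rows of Phf7 held few reads, and differences between them were not tested. The longest, of 2505 bases, had 16 input and 21 ChIP reads in siEGFP and 21 and 10 in siEgg, with log2 ratios of 0.57 (-0.33 to 1.71) and -0.51 (-1.89 to 0.51). The row of 2221 bases had ratios of -0.16 and 0.29, and that of 2211 bases had 0.31 in both knockdowns, on 6 to 20 reads per library. Their input reads were 14 and 19 in siEGFP and 6 and 8 in siEgg, against 16 and 21 in the longest row. The intervals of all 3 rows include 0 in both knockdowns and overlap each other.

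The rows of otu held 2 to 12 reads in a library and ratios from -1.04 to 0.40 in siEGFP, and those of ovo held 9 to 40 reads and ratios from -0.67 to -0.28. The ovo row of 5948 bases held 40 siEGFP input reads against 15 in siEgg, the widest gap between the inputs among the ovo rows. The 24 rows of Sxl held between 0 and 32 reads, with 7 of them at 0 in at least 1 library. The Sxl row with the most reads, of 5964 bases, had 17 input and 19 ChIP reads in siEGFP and 32 and 15 in siEgg, ratios of 0.30 (-0.58 to 1.48) and -0.48 (-1.65 to 0.27). The rows of osk held 14 to 30 reads and those of tud 37 to 74, and all 4 lay between -0.46 and -0.27 in siEGFP, with intervals that include 0.

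**Figure D4:**
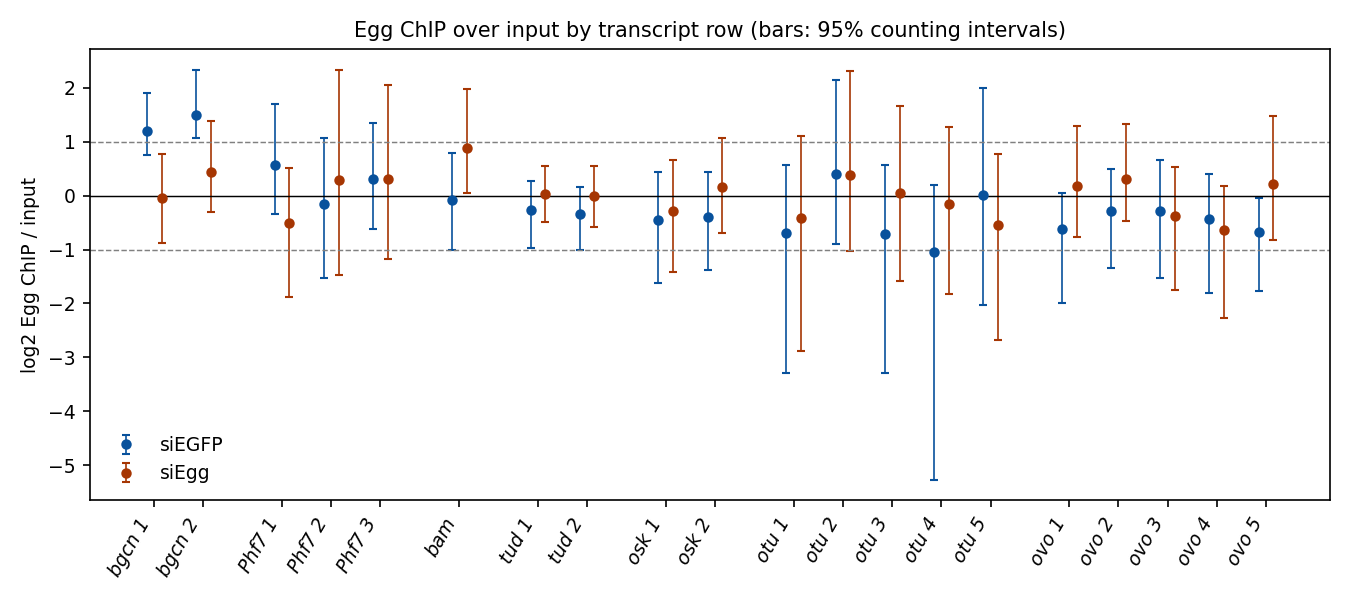
Log2 ratio of Egg ChIP to input for each transcript row of 7 of the genes, numbered in the order of the table, in siEGFP (blue) and siEgg (orange), with 95% counting intervals and dashed lines at a 2-fold difference. Both bgcn rows lie above a ratio of 1 in siEGFP, and no other row does; Sxl is left out because 7 of its 24 rows were at 0 in at least 1 library.

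On the X chromosome lie Phf7, Sxl, otu and ovo, with siEGFP values from -0.61 (ovo) to 0.30 (Phf7). The median of 2059 X genes tested was -0.22 in siEGFP and 0.11 in the change, and 131 of them were enriched. bgcn and tud lie on arm 2R, where the median of 2469 genes was -0.30 and 138 were enriched. bam and osk lie on arm 3R, where the median of 3031 genes was -0.33 and 128 were enriched. Over all chromosomes 699 of 12555 genes tested were enriched, or 5.57%. Differences between chromosomes were not tested.

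The nearest tested gene on each side of bgcn lay near input level. The gene on its lower coordinate side, gbb, a BMP ligand gene 0.023 kb away, had a siEGFP log2 ratio of -0.44 (-1.46 to 0.47), and TBPH, the fly TDP-43 gene 0.146 kb away on the other side, had -0.03 (-0.72 to 0.62). Pym, which overlaps bgcn, held 18 input reads and 23 ChIP reads in siEGFP, a value of 0.59 (-0.32 to 1.61), and reads in the overlap could belong to either gene. Of the 11 tested genes that overlap bgcn or lie within 10 kb, CG5569 was enriched at 1.25 and shu, a piRNA pathway co-chaperone gene, was depleted at -1.03. The first call ended with the pseudocount 5 times larger (0.96), and the second with that, quantile scaling, centring and pooled inputs (-0.63 to -0.91). None of the 11 fell or rose. Cpes, 4.04 kb away, had 0.81 (0.16 to 1.71) without a call. Farther out, TM4SF, 19.3 kb away, was enriched at 1.49 (0.67 to 2.16) and fell by a change of -1.36 (-2.42 to -0.30). GlyT, 13.4 kb away on the other side, rose by 1.09 (0.44 to 1.74). The calls at TM4SF and GlyT were not tried under the alternatives.

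Around Phf7 the adjacent gene Rab35, a small GTPase gene 0.483 kb away, had 53 input and 56 ChIP reads in siEGFP and 57 and 29 in siEgg. Its siEGFP ratio was close to that of Phf7, while its inputs were alike and those of Phf7 were not. Its log2 ratio went from 0.34 (-0.21 to 0.93) to -0.42 (-1.24 to 0.13), a change of -0.76 (-1.60 to 0.08) that did not pass. After centring on the median gene the change at Rab35 was -1.01 and passed. On the other side CG9577 had -0.84, and CG9578, 4.39 kb away and with 17 siEGFP ChIP reads against 4 in siEgg, fell by 2.01 (interval -3.93 to -0.08), a call that ended with the pseudocount 5 times larger (-1.29).

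Beside bam, the ribosomal protein gene RpS27 was enriched at 1.07 (0.03 to 2.47) on 10 input and 19 ChIP reads, a call that ended with quantile scaling (0.92) and with the pseudocount 5 times larger (0.84). The gene to, on the other side, had -0.89, and CG11854, which overlaps the end of bam, had -0.53. At osk, the antisense gene asRNA:CR44020 overlaps the gene's end and was depleted at -1.85 (-5.51 to -0.14) with 12 input and 2 ChIP reads in siEGFP. It had 11 and 13 reads in siEgg and rose by 2.46 (0.20 to 4.73), calls that ended with quantile scaling and after centring, the rise also with the larger pseudocount. The counting is not stated to use strand, so reads of osk and of this gene in their overlap cannot be told apart. ScsbetaA beside osk was depleted at -1.14, a call that ended with the larger pseudocount (-0.78), quantile scaling (-0.73) and centring (-0.85), and pyd, on its other side, had -0.66.

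At ovo, lncRNA:CR44833 overlaps the gene and had 3 input and 15 ChIP reads in siEGFP, a log2 ratio of 2.36 (0.78 to 5.03), against 4 and 6 in siEgg. It had 10 reads in fewer than 2 libraries, so it was not tested. The nearest tested genes on each side of Sxl (CG4607 at -0.83 and CG4615 at -0.64), of ovo (CG12680, 49.9 kb away, at -0.96 and CG32767 at -0.40) and of otu (CG33223 at -1.01, Nrg, 27.8 kb away, at -0.33 and the overlapping CG33181 at -0.65) all lay under input in siEGFP without a call. Farther from otu, Cp7Fc, 6.69 kb away, was depleted at -1.39 (-3.01 to -0.31), and Cp7Fb, 8.94 kb away, rose by 1.25 (0.11 to 2.38). The first call ended with the larger pseudocount (-0.97) and quantile scaling, and the second with the larger pseudocount (0.94), centring (0.99), pooled inputs (0.30) and a single row (0.90). Beside tud, Pu had -0.04 and CG44245 was depleted at -1.37, a call that ended with the larger pseudocount (-0.93) and quantile scaling (-0.98). Across all 8 loci, 2 of 47 tested genes that overlap a member or lie within 10 kb were enriched and 5 depleted in siEGFP, and 1 fell and 2 rose. Over all genes tested 5.57% were enriched and 7.48% depleted in siEGFP, and 3.24% fell and 4.93% rose.

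**Figure D5:**
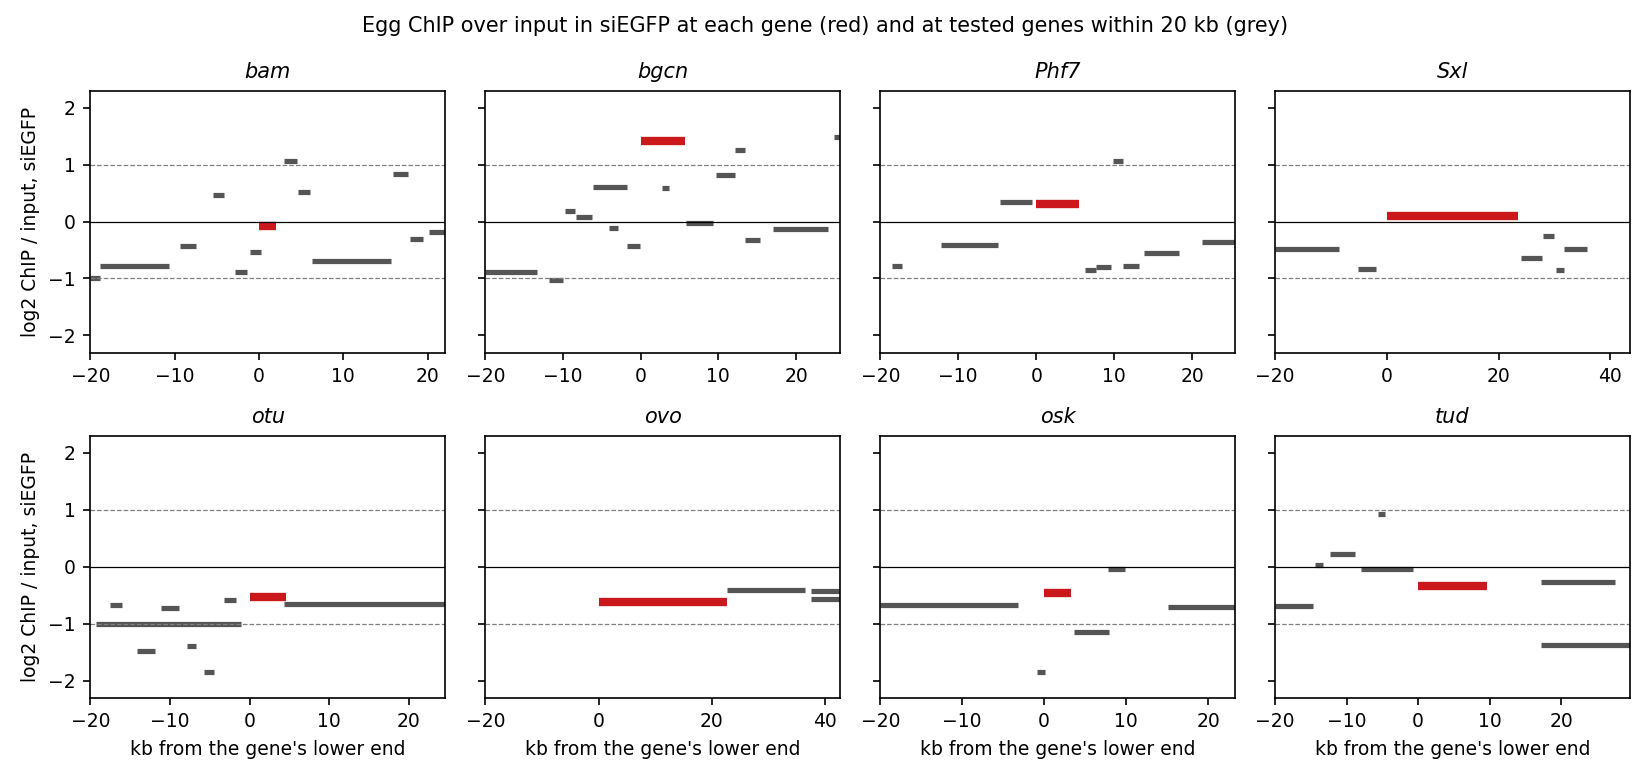
Log2 ratio of Egg ChIP to input in siEGFP (vertical axis) for each of the 8 genes (red) and for tested genes within 20 kb (grey), each drawn over its span in kb from the lower end of the named gene; dashed lines mark a 2-fold difference. bgcn stands at 1.41 between gbb at -0.44 and TBPH at -0.03, with TM4SF, 19.3 kb away, at 1.49. No other red bar passes a dashed line.

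Genes whose values were most like those of bgcn were found by the distance over both log2 ratios among 4083 tested genes with 0.5 to 2 times its reads in each input. They were udd on 2R (1.43 in siEGFP and 0.15 in siEgg), lawc on X (1.49 and 0.32) and Tmf on X (1.31 and 0.11), at distances of 0.079, 0.13 and 0.149. All 3 were enriched in siEGFP and fell, by changes of -1.29, -1.17 and -1.19. Because they were matched to bgcn on both ratios, these calls follow from the choice and are no separate result. With quantile scaling their enrichment was 0.84, 0.94 and 1.00 and their change -0.56, -0.63 and -0.88, so that no call was left, the value of Tmf lying just under 1. Likeness over 2 ratios from the same 4 libraries says nothing of function.

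Other genes of these pathways were read from 4 lists, chosen, like the 8 genes, with earlier results of these data known. Of 23 sex determination genes tested none was enriched, and the median was -0.15 in siEGFP and 0.12 in the change. sisA, an X-linked element that activates Sxl in the early embryo, was depleted at -1.40 (-3.35 to -0.08) and rose by 2.19 (0.45 to 3.92) on 5 and 16 ChIP reads. dpn, a repressor of Sxl, was depleted at -1.10 (-2.58 to -0.17). Targets and partners of Sxl gave no call, with tra at -0.12, msl-2 at 0.02, snf at 0.48 and fl(2)d at 0.57. The depletion calls at sisA and dpn each ended with the larger pseudocount, quantile scaling, centring and pooled inputs, and the rise of sisA ended with the pseudocount 5 times larger.

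Of 25 genes of germline stem cell differentiation zpg was enriched and fell, and the list's median was -0.40 in siEGFP and 0.30 in the change. zpg encodes the germline gap junction protein innexin 4. It had 8 input and 34 ChIP reads in siEGFP, a log2 ratio of 2.06 (1.23 to 3.69), and 18 and 18 reads in siEgg, a ratio of 0.39 (-0.59 to 1.46). The change of -1.67 (-3.10 to -0.25) stood beside inputs of 8 and 18 reads. With pooled inputs, which cancel in a change, it was -0.78 (-1.60 to 0.03) and did not pass. Nor did it pass with the pseudocount 5 times larger. Further partners of Bam and Bgcn had -0.37 (tut) and -0.95 (mei-P26) in siEGFP, and bel, a DEAD-box helicase gene, had 0.92, which after centring was 1.21 and passed. The bgcn neighbour gbb belongs to this list, and its receptor genes tkv and sax had -0.04 and -0.15.

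Of 24 pole plasm genes tested none was enriched and none passed the rule for a fall or a rise, with a median of -0.01 in siEGFP and -0.06 in the change. spir, an actin nucleator gene needed to place osk RNA, was depleted at -1.001 (-1.79 to -0.51), a call that ended with the larger pseudocount (-0.73), quantile scaling (-0.76), centring (-0.71) and pooled inputs (-0.94). vas, the germline helicase gene, had 0.16, and aub had -0.50. Of 7 genes of the H3K9 methylation machinery HP1c was enriched at 1.35 (0.65 to 2.21), which with quantile scaling was 0.82 and no longer passed. Its change of -1.21 (-2.44 to 0.03) did not pass, though it did with pooled inputs, which cancel in a change (-1.62), and after centring (-1.46). The median of these 7 genes was 0.10 in siEGFP, with wde at 0.57, the HP1a gene at -0.95 and egg at -0.67. Over the 4 lists and the 8 genes, enriched genes were thus single members, bgcn, zpg and HP1c, beside the 5.57% of all genes tested.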

How the data were processed

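The table was deposited by the authors with 1 row per RefSeq transcript (35327 rows) or transposon (175 rows) and 4 value columns. The submitters' processing notes name Bowtie2 2.2.4 and build dm6. The deposited values were taken as RPKM from the values themselves, since every row with reads could be written as whole reads divided by a whole length and library depth. The length of a row was not given. It was taken as the shortest at which every library had whole reads, so reads sharing a common factor would be counted too low. Depth was anchored on 5S rRNA rows of 135 bases, and all 34762 rows with reads came out whole within 0.0001 reads. Read counts and interval widths rest on that anchor and on the lengths found, and ratios do not. Rows were matched to genes by accession (34925) or by symbol or synonym (167), with RefSeq positions of Release 6 (dm6).

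RPKM and reads of a gene's rows were summed. Genes needed at least 10 reads, and RPKM above the pseudocount of 0.7 (median input divided by 10), in at least 2 libraries. Intervals of a ratio of 2 libraries were exact (Clopper-Pearson), and those of changes and of differences between genes were normal, after 0.5 reads were added to every count. Intervals omit the pseudocount. The exact ones use reads summed over rows, and the ratios use summed RPKM. Where rows differ in length, such an interval need not be centred on its ratio. The planned model across replicates could not be used with 1 column per group. Calculations used Python 3.11.15, numpy 2.4.6, pandas 2.3.3 and scipy 1.17.1, and were tested on simulated data. The genes and lists were chosen with earlier results of these data known. Named were the 8 genes, called members of the lists, overlapping and nearest tested genes on each side, and the 3 genes most like a called member. Other list members, and CG5569, shu, Cpes, TM4SF, GlyT, CG9578, Cp7Fb and Cp7Fc, were named after their values were seen. One listed gene, nos, was not analysed here, and SmD3 had too few reads. Tried alternatives were the pseudocount, scaling, inputs, read filter and choice of row. With pooled inputs the same input is subtracted from both ChIPs, so a change is then the difference between the ChIP libraries alone.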

Additional observations from a re-analysis of the deposited data

How the results depend on the processing

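No paired analysis was possible because the columns carry no replicate number, and for the same reason no replicate could be left out. Over the 24 ratios and changes of the 8 genes, 191 of 194 values under the alternatives kept their side of the call rule and, where no call was made, lay inside the reported interval. Part of these values could not differ. The read filters alter only which genes are tested, the single row of bam is its sum, and changes without inputs repeat those with pooled inputs. The exceptions came with quantile scaling: the change at bgcn was -0.76, leaving 0 of the 8 genes fallen, bam in siEgg was 1.02, making 1 gene enriched there, and Sxl in siEGFP was -0.37. The cause was not tested. The enrichment of bgcn in siEGFP kept its call under all 8 alternatives, from 1.05 to 1.71, though the read filters among them leave its value as it was. For bam the filter of 20 reads in each input, and for otu the single row, left too few reads for a value. Over all genes the calls depended on the settings. With the pseudocount 5 times larger, 464 genes were enriched and 230 depleted in siEGFP, 72 and 45 in siEgg, and 178 fell and 56 rose. With at least 20 reads in each input, and so fewer genes tested, these were 199 and 605, 8 and 80, and 178 fell. Quantile scaling gave 272 depleted genes in siEGFP, 323 enriched in siEgg and 299 that rose. Centring gave 1145 and 308 in siEGFP, with 748 that fell and 234 that rose, and no pseudocount gave 1025 that rose. The ChIP libraries without inputs, an alternative added after the data were seen, gave 590 lower and 428 higher genes, the same as pooled inputs. A 2-fold change lies inside the interval of the change at bam, Phf7, otu, ovo and osk, so their depth cannot show whether one occurred.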
